A study of Homo sapiens with 6 samples.

Results

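Collagens, laminins and integrins are the structural proteins of the extracellular matrix and the receptors with which cells hold on to it. They were taken from the deposited table by symbol, as every row named like a collagen alpha chain, a laminin alpha, beta or gamma chain, or an integrin alpha chain (numbered or V) or numbered beta chain. This gave 76 of 59074 rows, of which 44 were collagens, 12 laminins and 20 integrins. The RNA came from 3 established human glioblastoma cell lines (T98G, U251 and LN-229), harvested 72 h after they received a siPOOL, a pool of small interfering RNAs. The siHOTAIRM1 cells received a pool against the long non-coding RNA HOTAIRM1 and the siControl cells a non-target pool, and each cell line gave 1 library per condition, so 6 in all. The comparison asks which of these genes depend on HOTAIRM1 in glioblastoma cells. All libraries come from cultures of tumour cells without the vessels, immune cells or normal glia that share the matrix in a tumour, and the cell lines, not repeated cultures, were the replicates.

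Collagens are built of 3 alpha chains wound around each other, and they form fibrils (types I, II, III, V, XI), networks in basement membranes (type IV) or beaded filaments (type VI). Laminins are cross-shaped trimers of 1 alpha, 1 beta and 1 gamma chain and form the other network of basement membranes. Integrins pair 1 alpha with 1 beta chain across the cell membrane and bind these proteins outside the cell and the actin cytoskeleton inside it. Normal brain holds little fibrillar collagen outside its vessels and meninges, whereas glioma cells move along the laminin- and collagen-rich walls of vessels.

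Levels are given in CPM, the reads of a gene scaled to the same total in every library. Steps in the low values show what 1 read is worth and put the depth at 52.3 to 104 M reads per library, where 3 reads, the smallest level taken as detected, equal 0.0289 to 0.0574 CPM. Where values stand in pairs, the siControl library comes first. HOTAIRM1, the target, was at 1.99 CPM in siControl and 0.952 in siHOTAIRM1 cells of LN-229, at 3.49 and 2.15 in T98G, and at 1.27 and 0.623 in U251. It fell in the fit over the cell lines by 0.54 on the log2(CPM + 1) scale (SE 0.123, adjusted p = 0.0146, limma with the cell line as block), a call kept without U251 and with a pseudocount of 0.1 and lost in the other 8 alternatives tried. HOTAIRM1 was lower in the siHOTAIRM1 library of all 3 lines. Of the 10 glial markers, VIM was at 254 CPM or more in all 6 libraries, and NES and SOX2 at 329 to 507 and 8.15 to 117 CPM in LN-229 and U251 but below 1 CPM in T98G. GFAP was at 20.7 CPM or more in U251 alone (0.317 CPM or less in the others), S100B was highest in LN-229 (21.1 and 24.7 CPM), and SOX9 was at 10.3 and 11.5 CPM in T98G and 31.6 and 47.1 in U251. OLIG1 and AQP4 were at 0.0482 CPM or less everywhere. The summed level of the 7 leukocyte markers was 0.898 to 10.0 CPM, with CD68 at 7.80 and 2.72 CPM in T98G (change over the lines -0.62, adjusted p = 0.0223, limma) and PTPRC and CD3E at 0.0870 CPM or less in every library, and that of the 6 epithelial markers 4.20 to 97.7 CPM, most of it KRT18, with EPCAM and CDH1 at 0.248 CPM or less. The 7 endothelial markers summed to 0.668 to 11.5 CPM, most of it KDR and CDH5 in U251.

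Promoter windows of 4 members are shown, chosen for a call on knock-down or for a partner gene that lies head to head. COL11A1 and LAMB3 are members that changed on knock-down and have a window in the table used. COL4A2 and COL4A5 are each read away from a partner chain (COL4A1 and COL4A6) that lies head to head with it, so that 1 stretch of DNA serves both genes of a pair. The windows hold 300 bases, 250 before and 50 after the RefSeq start (GRCh38.p14), written from 5′ to 3′ on the strand of the gene. COL4A2 is on chr13:110307034-110307333 (plus strand), COL4A5 on chrX:108439588-108439887 (plus strand), COL11A1 on chr1:103108473-103108772 (minus strand) and LAMB3 on chr1:209652376-209652675 (minus strand). Capitals mark matches on either strand to CCAAT, the core of the NF-Y box, and to GGGCGG, the core of the GC box bound by SP1 and related factors.
COL4A2: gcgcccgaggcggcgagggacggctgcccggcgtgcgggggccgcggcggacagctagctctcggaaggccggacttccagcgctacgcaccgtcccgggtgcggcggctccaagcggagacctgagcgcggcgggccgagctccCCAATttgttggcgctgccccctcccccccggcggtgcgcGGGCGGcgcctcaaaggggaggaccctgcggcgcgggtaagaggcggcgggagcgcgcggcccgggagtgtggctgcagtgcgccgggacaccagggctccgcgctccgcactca
COL4A5: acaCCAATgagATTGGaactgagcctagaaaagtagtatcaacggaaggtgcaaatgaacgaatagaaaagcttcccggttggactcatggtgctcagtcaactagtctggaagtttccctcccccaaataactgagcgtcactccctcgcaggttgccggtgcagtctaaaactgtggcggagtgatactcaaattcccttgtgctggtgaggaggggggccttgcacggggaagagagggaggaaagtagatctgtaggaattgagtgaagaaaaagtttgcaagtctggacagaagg
COL11A1: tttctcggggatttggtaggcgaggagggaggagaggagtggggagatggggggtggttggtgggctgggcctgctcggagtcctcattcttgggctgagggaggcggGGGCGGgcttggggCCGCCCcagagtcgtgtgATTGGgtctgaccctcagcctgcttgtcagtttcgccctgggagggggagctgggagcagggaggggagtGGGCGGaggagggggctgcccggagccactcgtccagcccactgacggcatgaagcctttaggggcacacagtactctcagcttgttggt
LAMB3: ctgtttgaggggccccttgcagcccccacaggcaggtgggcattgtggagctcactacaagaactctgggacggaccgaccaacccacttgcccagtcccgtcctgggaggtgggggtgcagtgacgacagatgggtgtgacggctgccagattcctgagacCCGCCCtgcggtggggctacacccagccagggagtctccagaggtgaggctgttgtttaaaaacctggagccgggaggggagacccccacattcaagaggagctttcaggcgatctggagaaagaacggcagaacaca
The window of COL4A1 covers 226 of the 300 bases shown for COL4A2, and that of COL4A6 covers 121 of the 300 bases shown for COL4A5. GGGCGG was found in 42 of 74 member windows (56.76%), against 44.95% of all 35116 windows, and CCAAT in 25.68% against 34.61%. TATAAA, the TATA box, was in 13.51% of member windows against 11.53%, and TGANTCA, an AP-1 site, in 5.405% against 7.709%. None of the 4 windows shown holds TATAAA or TGANTCA. Several windows can belong to 1 gene and can overlap, 55 of the 76 members had at least 1, and a match is not evidence that a factor binds.

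The 3 cell lines differed widely in which of these genes they expressed. Of the 76 members, 56 reached a mean of 1 CPM over the 6 libraries and were tested among 14294 genes (31 collagens, 8 laminins, 17 integrins). In the limma contrasts, with an adjusted p under 0.05 and a difference of at least 1 on the log2(CPM + 1) scale, 34 of the 56 differed between T98G and LN-229, against 21.3% of all genes tested. Between U251 and LN-229 it was 34 (24.6% of all genes), and between U251 and T98G 35 (27.0% of all genes). A gene that passed the filter through 1 cell line alone had to differ, so these counts are descriptive. Each contrast rests on 2 libraries per cell line that received different siPOOLs, and 49 of the 56 members differed in at least 1 pair of cell lines. The 7 that did not were COL4A1, COL4A2, LAMB2, ITGA3, ITGAV, ITGB1 and ITGB5.

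**Figure D1:**
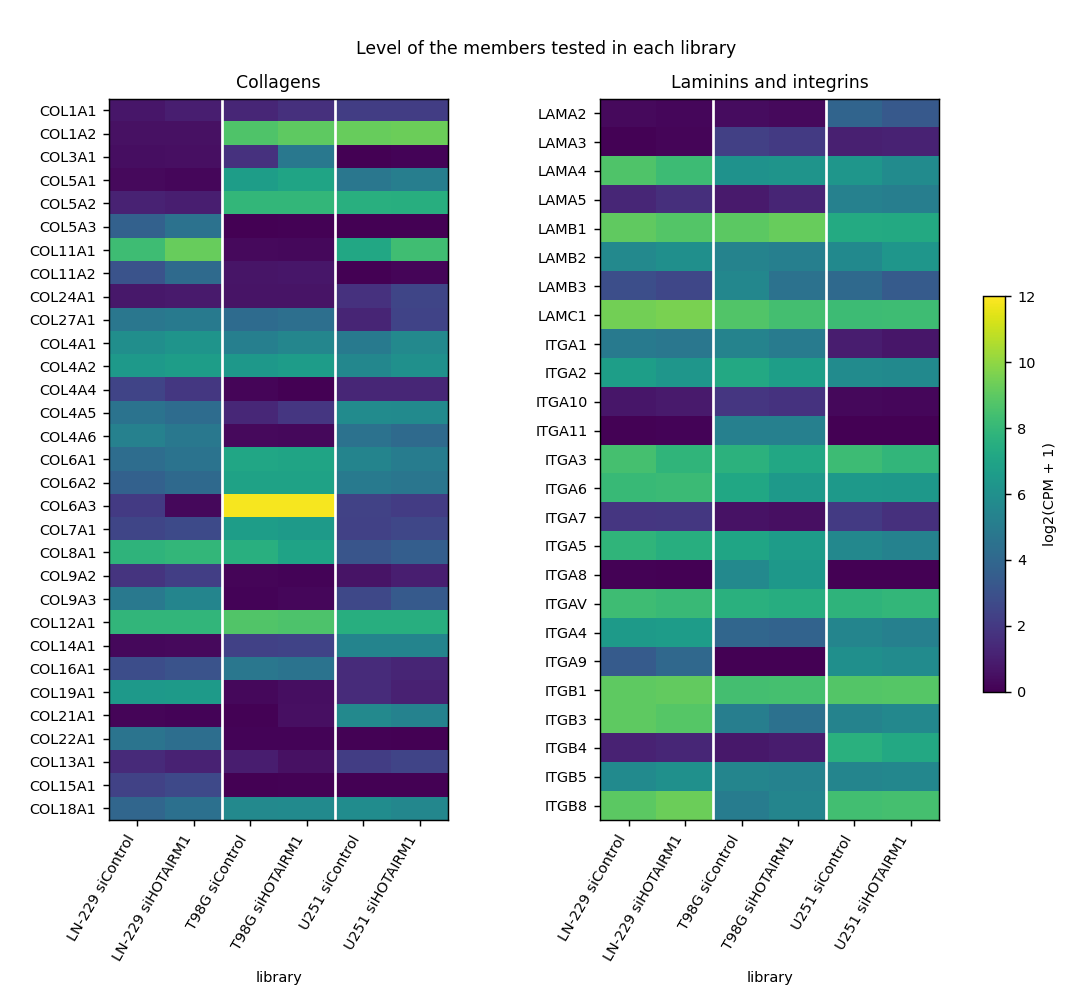
Level of the 56 tested members in each library, as log2(CPM + 1) in colour, with genes in rows and the 6 libraries in columns, in pairs by cell line. Columns of 1 cell line look alike, and COL6A3 in T98G (3636 CPM in both libraries) is the brightest cell.

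Among the fibrillar collagens, each cell line had its own combination. T98G and U251 shared COL1A2, COL5A1 and COL5A2, LN-229 and U251 COL11A1, and LN-229 and T98G COL27A1. COL1A2, a chain of type I collagen, was at 0.453 CPM in siControl and 0.443 in siHOTAIRM1 cells of LN-229, at 409 and 511 in T98G, and at 587 and 622 in U251. Its partner COL1A1, which supplies the other chains of the common type I trimer, stayed at 0.668 to 3.52 CPM in all 6 libraries. Per kb of transcript, COL1A2 stood 194- to 323-fold above COL1A1 in T98G and U251, whereas in LN-229 the ratio was 0.511 to 0.791. COL5A2, a chain of the type V collagen that starts fibrils, followed COL1A2, with 1.25 and 1.01 CPM in LN-229, 248 and 246 in T98G and 189 and 185 in U251. COL5A1 was at 0.238 and 0.154 CPM in LN-229, 100 and 127 in T98G and 26 and 33.7 in U251. COL5A1 and COL5A2 were thus at 26 CPM or more in every T98G and U251 library and at 1.25 CPM or less in LN-229. COL11A1, a chain of the related type XI collagen of cartilage, took the opposite course between LN-229 and T98G, with 308 and 600 CPM in LN-229, 0.217 and 0.179 in T98G and 145 and 322 in U251. COL5A3, another type V chain, went the other way from COL5A1 and COL5A2. It was at 12.5 and 21.9 CPM in LN-229 and at 3 reads or fewer in the other 4 libraries.

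Type VI collagen, which forms beaded filaments around cells, set T98G apart. COL6A3 was at 3636 CPM in both T98G libraries, at 3.16 and 0.212 in LN-229 and at 4.13 and 3.36 in U251, a difference between T98G and LN-229 of 10.66 (SE 0.238, adjusted p = 8.8e-29, limma) on the log2(CPM + 1) scale. Its partners COL6A1 and COL6A2 were expressed in all 3 cell lines: COL6A1 at 18.8 and 22.9 CPM in LN-229, 136 and 126 in T98G and 41.0 and 31.8 in U251. COL6A2 was at 12.1 and 15.9, 118 and 119, and 30.1 and 25 CPM in the same order. Per kb, COL6A3 stood 10.6- and 11.5-fold above COL6A1 in T98G and at 0.00370 to 0.0672 of it in LN-229 and U251. LN-229 and U251 therefore expressed the first pair of chains with little RNA of the third.

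The ubiquitous chains of type IV collagen, COL4A1 and COL4A2, were expressed in all 3 cell lines, with differences below 1 on the log2(CPM + 1) scale. COL4A1 was lower than in LN-229 by 0.73 in T98G and 0.78 in U251 (adjusted p = 0.000836 and 0.000326, limma), and COL4A2 lower in U251 by 0.77 (adjusted p = 0.000441). COL4A1 was at 29.3 to 73.5 CPM and COL4A2 at 46.6 to 100 CPM over the 6 libraries, and per kb COL4A2 exceeded COL4A1 by 1.31- to 2.39-fold in each library. By their GENCODE v44 coordinates the genes of this pair overlap at their starts on opposite strands. By the RefSeq start of the window shown above, COL4A2 begins past the end of COL4A1. Without strand in the counting, reads in such an overlap cannot be told apart. The second head-to-head pair was less even. COL4A5 was at 22.8 and 17.7 CPM in LN-229, 1.52 and 2.68 in T98G and 54.4 and 53.4 in U251, and COL4A6 at 38.0 and 27.1, 0.217 and 0.206, and 22 and 17 CPM. COL4A6 was above COL4A5 in LN-229 and below it in T98G and U251, with a per-kb ratio of COL4A5 to COL4A6 of 0.615 to 0.670 in LN-229, 7.16 and 13.3 in T98G and 2.53 and 3.21 in U251.

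COL12A1, which coats fibrils, was at 182 to 426 CPM and above every other fibril-associated collagen in each library. Most of the others were high in 1 cell line. COL14A1 and COL21A1 were high in U251 (41.6 CPM in both libraries, and 48.7 and 39.4 CPM) and at 4.37 CPM or less elsewhere. COL19A1 (87.1 and 93.3 CPM) and COL22A1 (23.8 and 19.2 CPM) were high in LN-229 and at 1.80 CPM or less elsewhere. COL9A3, a chain of the type IX collagen of cartilage, was at 27.4 and 42.4 CPM in LN-229, 0.0870 and 0.151 in T98G and 4.98 and 9.40 in U251. COL8A1, a network collagen of vessel walls, was at 221 and 248 CPM in LN-229, 187 and 123 in T98G and 7.96 and 11.0 in U251. COL7A1, which builds the anchoring fibrils of skin, was at 101 and 92.0 CPM in T98G and 4.04 to 5.57 CPM in the other lines. COL19A1 and COL9A3 overlap LMBRD1 and TCFL5 on the opposite strand, at 7.65 to 19.3 and 7.66 to 13.5 CPM.

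The untested 20 members were low everywhere. They included COL2A1, COL4A3, COL6A5, COL6A6, COL8A2, COL9A1, COL10A1, COL17A1, COL20A1, COL23A1, COL25A1, COL26A1, COL28A1, LAMA1, LAMB4, LAMC3, ITGB2, ITGB6 and ITGB7. COL6A5, COL10A1, COL23A1 and COL26A1 were listed at 0.0001 CPM in all 6 libraries, which is the constant the authors added to 0. COL2A1, the main collagen of cartilage and a partner of COL11A1 there, was at 0.0413 to 0.289 CPM, and ITGB2, the beta chain of leukocyte integrins, at 0.0396 to 0.399 CPM.

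Among the laminins, LAMB1 and LAMC1 were the chains with the most RNA per length in every cell line. LAMC1 was at 685 and 777 CPM in LN-229, 427 and 338 in T98G and 298 and 310 in U251, and LAMB1 at 539 and 447, 506 and 594, and 159 and 156 CPM. The alpha chain, which gives a trimer its binding partners, differed between the lines. LAMA4, the alpha chain of laminins of vessels and mesenchyme, was at 410 and 295 CPM in LN-229, 67.7 and 73.0 in T98G and 77.5 and 53.5 in U251. LAMA5 was at 37.2 and 33.8 CPM in U251 and 0.840 to 2.08 CPM in the others, and LAMA2 at 13.4 and 9.12 CPM in U251 and 0.319 CPM or less in the others. LAMA4 was higher in LN-229 than in both other lines (by 2.29 and 2.41 on the log2(CPM + 1) scale, adjusted p = 1.8e-12 and 4.4e-13, limma), and LAMA5 was higher in U251 (by 3.73 and 4.12). LAMA5 passed the filter through U251 alone, so its difference is a description. LAMA5 overlaps ADRM1 (26.9 to 57.8 CPM) and LAMB1 overlaps DLD (45.3 to 84.4 CPM) on the opposite strand. LAMA3 and LAMB3 are chains of laminin-332, the anchor of epithelia, and LAMB3 reached 45.7 CPM while LAMA3 was at 3.76 CPM or less.

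Among the integrins, ITGB1, the common beta chain of collagen and laminin receptors, was at 339 to 551 CPM and led all integrins per length in each cell line. ITGAV, the alpha chain of receptors for RGD motifs, was at 177 to 308 CPM in the 6 libraries, with ITGB1 3.17- to 3.76-fold above it per kb. The other chains set the lines apart. ITGB3 was at 520 and 453 CPM in LN-229, 34.1 and 21.1 in T98G and 40.0 and 47.7 in U251, and ITGB8, which with ITGAV binds latent TGF-beta, at 504 and 624, 32.0 and 42.4, and 325 and 353 CPM. ITGB4, the laminin receptor chain of hemidesmosomes, was at 194 and 152 CPM in U251 and 0.695 to 1.48 CPM in the others. ITGB4 was thus higher in U251 than in LN-229 by 6.20 on the log2(CPM + 1) scale. It passed the filter through U251 alone, so this difference is a description. Its partner ITGA6 was lower in U251 (87.5 and 83.1 CPM) than in LN-229 (274 and 285). T98G alone expressed ITGA8 (49.5 and 82.5 CPM) and ITGA11, a receptor chain for fibrillar collagen (36.3 and 36.7 CPM), and both were at 0.0674 CPM or less in the other lines. ITGA9 was at 10.0 and 15.4 CPM in LN-229 and 61.3 and 55.2 in U251, and at 0.0276 CPM or less in T98G. ITGA1, a collagen receptor chain, was at 26.2 to 40.1 CPM in LN-229 and T98G and below 1 CPM in U251. ITGA9 and ITGB4 overlap other genes on the opposite strand, ITGA9-AS1 (0.287 to 1.67 CPM) and GALK1 (3.67 to 7 CPM).

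**Figure D2:**
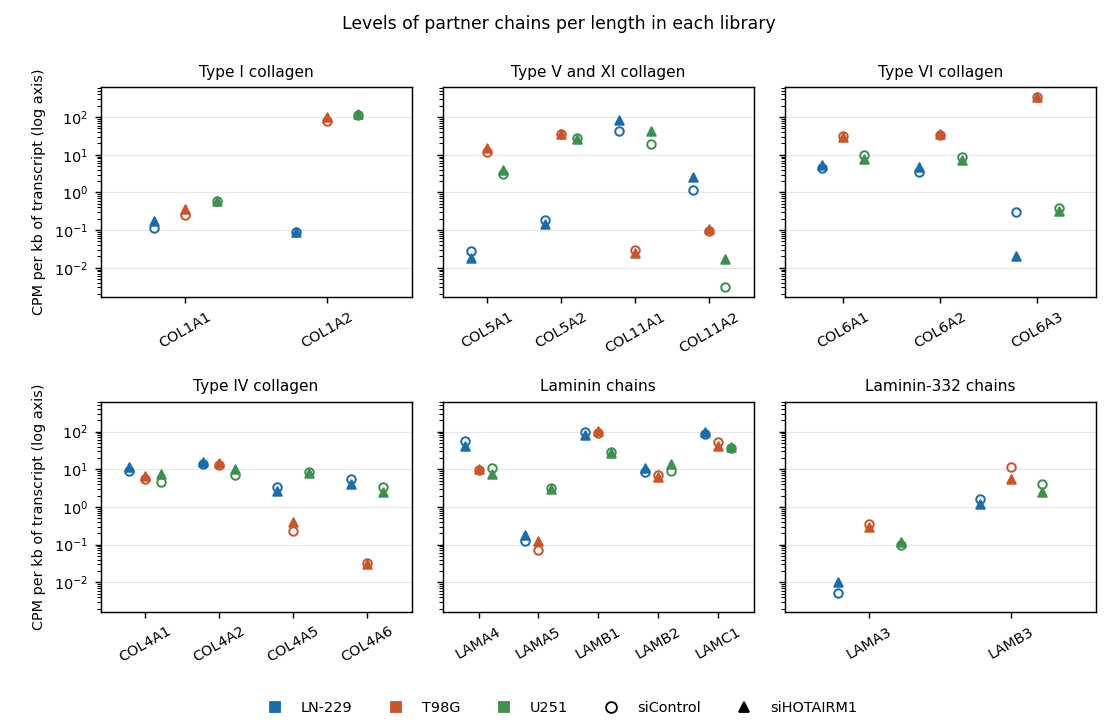
Levels per length (CPM per kb of transcript, log axis) of chains that assemble together, for the 3 cell lines in colour, with open circles for siControl and filled triangles for siHOTAIRM1 libraries, 1 library each. COL1A2 lies at least 194-fold above COL1A1 in T98G and U251, and COL6A3 lies above its partners in T98G alone.

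On knock-down, 2 collagens rose and 1 laminin fell in the fit over the 3 cell lines. These were COL3A1 and COL11A1, 2 of 56 members (0.413% of all genes tested rose), and LAMB3, 1 of 56 (1.59% of all genes fell). The difference of COL3A1 in T98G was known when these genes were chosen, and COL3A1 passed the filter through its T98G siHOTAIRM1 library, so its call is a description and the count supports nothing about the class. No integrin passed the threshold. Without adjustment, 12 of the 56 members had p under 0.05, near the 18.3% of all genes that did, and the next in order were COL6A3, COL9A3, COL27A1, COL4A1, ITGA3, COL11A2, ITGA2, ITGA5 and COL24A1. All 3 calls were lost without the cell line as block, with a paired t-statistic fitted gene by gene, with each library centred on its median, with the CPM rescaled over the listed genes, without the filter, with the trend in transcript length removed and without T98G. In those fits 0 of 56 members passed, with 0 to 14 at an unadjusted p under 0.05.

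Within a cell line there was 1 library per condition and no test, so differences of at least 0.5 on the log2(CPM + 1) scale were counted. In LN-229, COL5A3, COL9A3, COL11A1, COL11A2 and ITGA9 were higher by this measure (5 of 56 members, 1.47% of all genes) and COL6A3 and ITGA3 were lower (2 of 56, 0.993% of all genes). In T98G, COL3A1, COL4A5 and ITGA8 were higher (3 of 56, 0.644% of all genes) and COL8A1, LAMB3, ITGA3, ITGA6 and ITGB3 lower (5 of 56, 8.26% of all genes). In U251, COL4A1, COL9A3, COL11A1, COL24A1, COL27A1 and LAMB2 were higher (6 of 56, 6.56% of all genes) and LAMA2, LAMA4 and LAMB3 lower (3 of 56, 11.9% of all genes). LAMB3 and ITGA3 were lower, and COL9A3 and COL11A1 higher, in 2 cell lines each. The scaling moved these counts. Centred on each library's median, 9 members were higher and 1 lower in T98G, since the median of all genes there lay at -0.19. Rescaled over the listed genes, 12 were higher and 0 lower in U251, where the median of all genes then lay at 0.18. The shares of all genes under these scalings are not given, so these counts are not read as a result about the members.

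**Figure D3:**
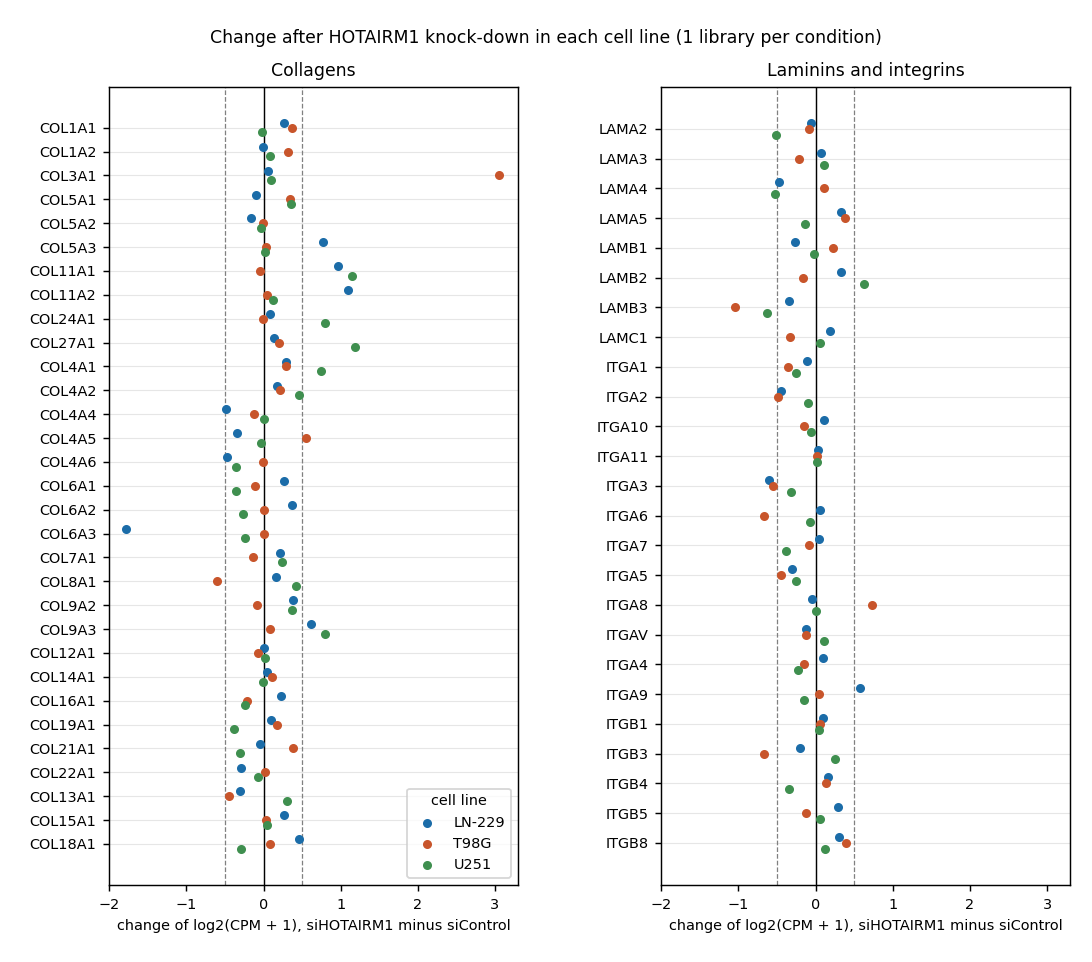
Difference in log2(CPM + 1), siHOTAIRM1 minus siControl, of each tested member in each cell line (points in colour, 1 library per condition, no error bar). Dashed lines mark 0.5 in either direction. COL3A1 in T98G (3.06) and COL6A3 in LN-229 (-1.78) lie farthest from 0.

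COL3A1 (chromosome 2, 188974373 to 189012746, hg38, plus strand), the chain of the type III collagen that accompanies type I in skin and vessel walls, gave the largest difference of any member in 1 cell line. It was at 0.351 and 0.404 CPM in LN-229, 2.32 and 26.6 in T98G, and 0.0001 and 0.0693 in U251, siControl before siHOTAIRM1. Only the siHOTAIRM1 library of T98G exceeded 3 CPM. There it held 1935 reads against 160, an 11.5-fold difference with a 95% interval of 9.77 to 13.5 for counting error. The change fitted over the cell lines, 1.07, is given as a description, and it was 0.08 without T98G. Its neighbour COL5A2, whose gene ends 19.2 kb away on the other strand, stood at 248 and 246 CPM in T98G. COL1A2, COL1A1 and COL5A1 differed in T98G by 0.32, 0.38 and 0.34. POSTN, a matrix protein and a marker of activated fibroblasts, moved with COL3A1 in T98G (2.03 and 7.81 CPM), and it rose over the cell lines by 0.79 (adjusted p = 0.00386, limma), a call lost without T98G (0.42, adjusted p = 0.581). It was 1 of 9 tested fibroblast and pericyte markers to rise (0.413% of all genes tested rose), and none fell. The summed level of the 10 listed markers was 384 and 382 CPM in T98G. PDGFRB was at 185 and 188 CPM there, THY1 at 152 and 131 CPM and DCN at 0.0276 CPM or less. The part of such cells in the change of COL3A1 was not tested, and more cells of 1 kind and more RNA per cell cannot be told apart in bulk RNA.

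COL11A1 (chromosome 1, 102876467 to 103108872, minus strand, promoter shown above) was higher after knock-down in both lines that express it. It was at 308 and 600 CPM in LN-229 and at 145 and 322 CPM in U251, which are 1.95-fold (1.92 to 1.98) and 2.22-fold (2.17 to 2.28) differences with intervals for counting error. In T98G it stood at 0.217 and 0.179 CPM, 15 and 13 reads. Over the cell lines it rose by 0.69 (SE 0.167, adjusted p = 0.0234, limma), and the call was lost when any 1 cell line was left out (0.46 to 1.05, adjusted p = 0.188 to 0.412). Its chain partner COL11A2 was at 7.34 and 16.9 CPM in LN-229, 0.623 and 0.674 in T98G, and 0.0192 and 0.109 in U251. COL11A2 changed by 0.42 (adjusted p = 0.119), with a 2.30-fold difference in LN-229 alone.

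Other collagens known from cartilage were looked at after their values were seen and are given without a group test. COL9A3 differed by 0.61 (LN-229), 0.08 (T98G) and 0.80 (U251), with 0.50 over the lines (adjusted p = 0.0714, limma), and COL9A2 by 0.38, -0.08 and 0.37. The third type IX chain, COL9A1, too low to be tested, was at 1.33 and 1.07 CPM in LN-229. COL27A1, a fibrillar collagen of cartilage, was at 26.5 and 29.2 CPM in LN-229, 17.1 and 19.8 in T98G and 1.38 and 4.42 in U251, the last a 3.21-fold difference (2.50 to 4.11). Its change over the lines was 0.51 (adjusted p = 0.09). The fibrillar collagens COL5A3 and COL24A1, not counted here as collagens of cartilage, were likewise named after their values were seen. COL5A3 in LN-229 (12.5 and 21.9 CPM) and COL24A1 in U251 (2.32 and 4.75 CPM) were higher, by 1.76- and 2.05-fold, in the line that expressed them most. Of the 10 tested fibrillar collagens, COL3A1 among them, 9 had an estimate over the lines above 0 (5180 of all 14294 genes did), with a median of 0.28 against -0.07 over all genes. An unadjusted p under 0.05 was found for 5 of the 10 (COL3A1, COL11A1, COL11A2, COL24A1 and COL27A1), against 18.3% of all genes. COL3A1 was known to differ in T98G beforehand and passed the filter through that line. The counts and medians of this list are therefore descriptive and support nothing about the class. The median change of this list was 0.11, 0.12 and 0.11 in LN-229, T98G and U251, against 0.01, -0.19 and -0.03 over all genes. Rescaled over the listed genes it was 0.10, 0.32 and 0.29 (all genes -0.03, 0.00 and 0.18), and with the length trend removed 0.10, 0.25 and 0.05.

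LAMB3 (chromosome 1, 209614870 to 209652425, minus strand, promoter shown above), the beta chain of laminin-332, was lower after knock-down in all 3 lines. It was at 6.41 and 4.85 CPM in LN-229, 45.7 and 21.7 in T98G and 16 and 10 in U251. The siHOTAIRM1 library held 0.756 (0.671 to 0.853), 0.475 (0.447 to 0.504) and 0.627 (0.572 to 0.687) of the siControl level, with intervals for counting error. LAMB3 fell by 0.67 over the lines (SE 0.150, adjusted p = 0.0120, limma). It held without LN-229 and without U251 and was lost without T98G (adjusted p = 0.581), the line with the largest difference. The alpha chain LAMA3 changed by -0.01 over the lines (adjusted p = 0.97, above 0 under other scalings) and stood at 3.76 and 3.11 CPM in T98G. Of the epithelial markers, KRT18 was at 93.9 and 76.2 CPM in LN-229, 74.0 and 55.4 in T98G and 4.75 and 3.42 in U251, lower with LAMB3 in each line (change -0.36, adjusted p = 0.155). The summed level of the 6 epithelial markers was 97.7 and 79.8, 76.8 and 58.4, and 5.59 and 4.20 CPM, with CDH1 and EPCAM at 0.248 CPM or less, and their part was not tested.

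COL6A3 (chromosome 2, 237324003 to 237414328, minus strand) changed by -0.67 over the lines (SE 0.194, adjusted p = 0.0597, limma), for the most part through LN-229. There it held 279 reads in the siControl and 22 in the siHOTAIRM1 library (0.0670 of the siControl level, 0.0434 to 0.103), and in T98G the libraries were equal at 3636 CPM. Without LN-229 the change was -0.12 (adjusted p = 0.766). The LN-229 siControl level is 0.0869% of that in T98G and the siHOTAIRM1 level 0.00582%. A rule set after these values were seen took genes above 150 CPM in both T98G libraries. Their lower LN-229 level had to be under 0.2% of the lower T98G level. It gave 6 genes (AKR1B10, AKR1C2, CLSTN2, COL1A2, COL6A3, GABRA2), which stood in the LN-229 siControl library at 0.0822 to 0.183% of their T98G level and in the siHOTAIRM1 library at 0 to 0.108%. All 6 had the lower share in the siHOTAIRM1 library, although COL1A2 hardly differed (0.111 and 0.108%) and was also high in U251. COL6A3 prompted the rule and is among the 6, and the rule selects on the lower LN-229 library. The count is therefore descriptive and supports nothing about COL6A3. In U251, AKR1B10 (1.05 and 0.662%), AKR1C2 (0.134 and 0.0519%) and COL6A3 (0.114 and 0.0924%) were also lower in the siHOTAIRM1 library. CLSTN2 and GABRA2 stood at 0 in both U251 libraries, and COL1A2 was higher in the siHOTAIRM1 library (143 and 152%). The part of RNA or reads from T98G in the LN-229 siControl library was not tested, and the low level of COL6A3 in LN-229 is given with this limit.

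COL4A1 and COL4A2, the head-to-head pair, were both higher in all 3 siHOTAIRM1 libraries. COL4A1 was at 59.9 and 73.5 CPM in LN-229, 35.7 and 44.2 in T98G and 29.3 and 49.9 in U251. COL4A2 was at 88.8 and 100 CPM, 84 and 97.6, and 46.6 and 64.7 CPM. The differences were of like order in the pair, 1.23- and 1.13-fold in LN-229, 1.24- and 1.16-fold in T98G and 1.70- and 1.39-fold in U251, and COL4A1 had the larger one in each line. Neither passed the threshold (0.45, SE 0.146, adjusted p = 0.0941, and 0.28, SE 0.148, adjusted p = 0.304, limma). The other pair shared no direction in T98G: COL4A5 differed by -0.35, 0.55 and -0.03 in LN-229, T98G and U251, and COL4A6 by -0.47, -0.01 and -0.36. COL4A5 in T98G was 1.76-fold higher (1.39 to 2.24) from a level of 1.52 CPM.

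The abundant laminin chains moved little or in different directions. LAMB1 changed by -0.02 (SE 0.183) and LAMC1 by -0.03 (SE 0.191) over the lines, and both estimates turned above 0 under other scalings. LAMA4, the alpha chain with the most RNA per length in each line, differed by -0.47, 0.11 and -0.53 in LN-229, T98G and U251, and LAMB2, the beta chain of vessel and synapse laminins, by 0.33, -0.17 and 0.63. Of the 8 tested laminins, 6 had an estimate below 0 (9114 of all 14294 genes), with a median of -0.03.

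Of the integrin alpha chains, ITGA3, a laminin receptor chain, came nearest to the threshold. It was at 350 and 231 CPM in LN-229, 211 and 144 in T98G and 296 and 237 in U251. All 3 siHOTAIRM1 libraries were lower than their siControl, at 0.660, 0.684 and 0.801 of it, and the change was -0.49 (SE 0.169, adjusted p = 0.113, limma). ITGA5, the fibronectin receptor chain, was at 229 and 185, 132 and 97.0, and 47.1 and 39.4 CPM, and ITGA2, a collagen receptor chain, at 106 and 77.1, 149 and 106, and 54.4 and 50.9 CPM. Their changes were -0.33 and -0.34 (adjusted p = 0.232 and 0.213), again lower in every line. With the CPM rescaled over the listed genes the differences in U251 shrank or turned, to -0.05 for ITGA3, 0.01 for ITGA5 and 0.17 for ITGA2. The beta chains varied: ITGB1 changed by 0.06 (SE 0.187), with 0.04 to 0.09 in single lines, and ITGB5 by 0.08 (SE 0.144), with -0.12 to 0.29. ITGB3 differed by -0.20, -0.67 and 0.25 in LN-229, T98G and U251, ITGB4 by 0.16, 0.14 and -0.35, and ITGB8 by 0.31, 0.39 and 0.12. ITGA6 differed by 0.06, -0.67 and -0.07. ITGA8, expressed in T98G alone, was 1.67-fold higher there (1.60 to 1.74). Of the 17 tested integrins, 6 had an estimate above 0 and 11 below, with a median of -0.05, against -0.07 over all genes.

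Lists of genes that act with the members held no gene past the threshold. Of 25 tested genes of 28 that modify and process collagen (hydroxylases, chaperones, lysyl oxidases, propeptide proteases), 0 rose and 0 fell, and 2 had an unadjusted p under 0.05 (18.3% of all genes). Their median was 0.10, with 19 estimates above 0 (5180 of all 14294 genes). PLOD1, a lysyl hydroxylase, was at 145 and 284 CPM in U251, and LOX, which cross-links collagen, at 69.2 and 46.6 CPM in T98G and 3.06 and 9.74 in U251. Of the 8 basement membrane partners, 0 passed, 1 had an unadjusted p under 0.05 (18.3% of all genes), and the median was 0.16. FN1, fibronectin, was at 642 and 901 CPM in LN-229, 1108 and 1119 in T98G and 197 and 310 in U251, and changed by 0.38 (adjusted p = 0.312, limma). Of 17 tested genes of 21 of the integrin adhesion complex, 0 passed, 3 had an unadjusted p under 0.05 (18.3% of all genes), and 14 had an estimate below 0 (median -0.13), as did 9114 of all 14294 genes (median -0.07). ILK and LIMS1, which form 1 complex at integrin tails, changed by -0.32 and -0.39 (adjusted p = 0.224 and 0.138).

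Transcript length moved with the changes of all genes in 2 lines. Across 12258 genes with a length, which are not independent replicates, change and length had a Spearman's rho of -0.03 (LN-229), 0.24 (T98G) and 0.31 (U251). The tested members have long transcripts, with a median of 6434 bases against 3301.5 for all genes tested. With the trend removed, the median change of the 31 collagens stayed at 0.13 in LN-229 and went from 0.04 to 0.18 in T98G and from 0.02 to -0.05 in U251, and that of the 17 integrins from 0.05 to 0.04 in LN-229, from -0.13 to 0.0022 in T98G and from -0.07 to -0.13 in U251. The single members kept their differences: COL3A1 in T98G at 3.21, COL11A1 at 0.95 and 1.07 in LN-229 and U251, and LAMB3 at -0.35, -0.86 and -0.63.

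**Figure D4:**
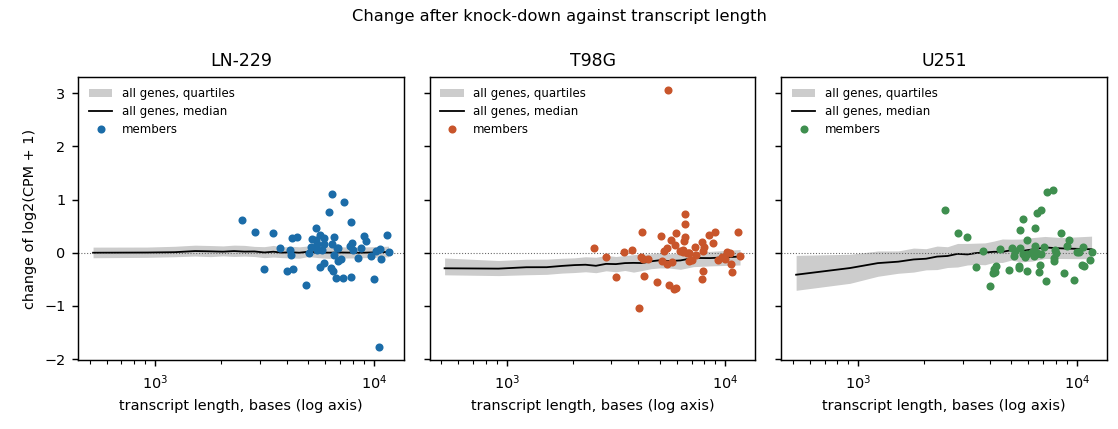
Change of log2(CPM + 1) against transcript length (bases, log axis) in each cell line, with the median (line) and quartiles (band) of all tested genes in 20 length bins and the 56 members as points. The median line rises with length in T98G and U251 and is flat in LN-229, and members lie at the long end.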

How the data were processed

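The authors deposited 1 table of CPM (59074 genes, 6 libraries), in which 0.0001 had been added to every value. Per the labels and methods, 500 ng of total RNA was prepared with the unstranded TruSeq v2 kit and sequenced for 101 cycles. In Partek Flow, reads were trimmed (13 bases at the 5′ and 1 at the 3′ end), aligned to hg38 with STAR 2.4.1d and then Bowtie 2 2.2.5, and assigned to Ensembl 84 by expectation-maximization. The columns sum to 42.9 to 67.2% of the full CPM scale. Since 80.5 to 81.7% of low values were whole reads (within 0.02 reads), no count test was run.

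Changes and levels were fitted on log2(CPM + 1) with limma 3.58.1 (R 4.3.3), a mean-variance trend, cell line and condition, over the 14294 genes whose mean reached 1 CPM, with Benjamini-Hochberg adjustment and a threshold of 0.05. Numbers pair libraries of 1 cell line (r = 0.948 to 0.967 between deviations, -0.505 to -0.467 between lines). Intervals at 95% cover counting error only. The fit was tested on simulated data. Lengths, exons and gene coordinates came from GENCODE v44 (all 76 members matched), and promoters from RefSeq. Other steps used Python 3.11.15 with pandas 2.3.3, scipy 1.17.1, numpy 2.4.6 and matplotlib 3.10.9.

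The members and lists were chosen with earlier results of these data known. Genes named by rule were members past the threshold or with a change of at least 1 in any line, the 3 with the highest mean CPM of each class, their chain partners, called genes of the pathway lists, and HOTAIRM1. Other members were named after their values were seen. Markers of glial cells, fibroblasts and pericytes, endothelium, leukocytes and epithelium were checked. Of the tested ones, 1 rose (POSTN, 0.413% of all genes tested rose) and 1 fell (CD68, 1.59% of all genes fell). CD68 was the only 1 of 7 leukocyte markers tested. It differed by 0.01, -1.24 and -0.63 in LN-229, T98G and U251. Past the threshold were 0 of 7 glial, 0 of 1 endothelial and 0 of 2 epithelial markers. The sample titles call the first line LNT229 and its cell line entry LN-229. Of the untested members, 1 is not reported here.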

Additional observations from a re-analysis of the deposited data

Results flagged for a closer look

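Several members named by rule changed in opposite directions in a pair of cell lines. The gap was at least 0.5 on the log2(CPM + 1) scale, and the counting intervals left out no change in either line. Members not named by rule also met these terms. Among them were COL8A1 (-0.60 in T98G, 0.42 in U251), COL4A5 (-0.35 in LN-229, 0.55 in T98G) and LAMB2 (-0.17 in T98G, 0.63 in U251). COL18A1 (0.46 in LN-229, -0.29 in U251) and COL13A1 (-0.45 in T98G, 0.31 in U251) did so too. With 1 library per condition in each line these differences were not tested. For COL6A1 the change in LN-229 exceeded that in U251 by 0.63 (0.27 and -0.36), and for its partner COL6A2 by 0.63 (0.37 and -0.26). The change of LAMA4 in T98G exceeded that in LN-229 by 0.58 and that in U251 by 0.63, and that of LAMA5 in T98G exceeded that in U251 by 0.52. For LAMC1 the change in LN-229 exceeded that in T98G by 0.52. Among integrins, ITGA6 differed by 0.73 between LN-229 and T98G, ITGA9 by 0.72 between LN-229 and U251, and ITGB3 by 0.92 between U251 and T98G. Groups of 3 libraries are too small to look for an outlying library.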

How the results depend on the processing

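The 286 genes (3 members) called on knock-down became 0 (0) without the replicate block, 0 (0) with the paired t-statistic, 41 (0) with each library centred on its median, 25 (0) rescaled over the listed genes, 683 (7) with a pseudocount of 0.1, 0 (0) without the filter and 60 (0) with the length trend removed, an alternative chosen after seeing the data. Leaving out a cell line gave 0 to 270 genes and 0 to 4 members, with 0 in both without T98G. At an unadjusted p under 0.05, the fit without the block found 29 genes and 0 members, the paired t-statistic 896 and 2, and the fit without the filter 2477 and 8. With the pseudocount of 0.1, COL11A2, COL27A1, COL6A3 and COL9A3 were added. In counts within a line, members lower in LN-229 went from 2 to 5 when rescaled. In T98G, the 3 higher became 9 when centred, 10 rescaled, 7 with the pseudocount and 5 with the length trend removed, and the 5 lower became 1, 2 and 3 when centred, rescaled and length-corrected. In U251, the 6 higher became 12 when rescaled, and the 3 lower became 1 centred, 0 rescaled and 7 with the pseudocount. The shares of all genes within a line under these alternatives are not given, so the counts show only how the processing moves them. HOTAIRM1 itself, past the threshold in the main fit, passed it among the alternatives only without U251 and with the pseudocount of 0.1. The causes were not tested. Counts between cell lines and of the pathway lists stayed within 1.5 times. Among members not named by rule, which the next count leaves out, COL8A1 and COL4A5 were some that turned direction without T98G. The fitted changes of 14 members named by rule turned direction in at least 1 alternative, none of them past the threshold. Centred, they were 0.012 for COL5A2, 0.013 for COL6A1, 0.066 for COL12A1, 0.066 for LAMA3, 0.058 for LAMB1, 0.047 for LAMC1, 0.049 for ITGA10 and 0.032 for ITGAV. Rescaled, they were 0.070 for COL5A2, 0.083 for COL6A1, 0.137 for COL12A1, 0.128 for LAMA3, 0.129 for LAMB1, 0.117 for LAMC1, 0.043 for ITGA10, 0.103 for ITGAV and 0.051 for ITGA4. LAMA3 was at 0.104 with the pseudocount of 0.1, and LAMB1 and ITGA10 at 0.0058 and 0.0029 with the length trend removed. Leaving out a cell line gave -0.234 to 0.080 for COL6A1, -0.125 to 0.190 for COL6A2, -0.029 to 0.016 for COL12A1, -0.074 to 0.088 for LAMA3, -0.146 to 0.103 for LAMB1, -0.139 to 0.120 for LAMC1, -0.102 to 0.031 for ITGA10, -0.024 to 0.363 for ITGA8, -0.055 to 0.307 for ITGA9, -0.434 to 0.024 for ITGB3 and -0.027 to 0.177 for ITGB5. With 1 library per line and condition, the spread within a line is unknown.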
